A study of Mus musculus with 2 samples.

Results

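Integrins are the receptors with which macrophages hold on to other cells and to the matrix, and *Icam1* encodes the best known cell-surface ligand of the leukocyte integrins. The 10 genes described here, *Itgb2*, *Itgam*, *Itgal*, *Itgax*, *Itga4*, *Itga5*, *Itgav*, *Itgb1*, *Itgb3* and *Icam1*, were taken by symbol from the 37451 genes of the expression table, and all 10 were found. Their RNA was measured by RNA-Seq in bone marrow-derived macrophages (BMDMs) after 6 h of lipopolysaccharide (LPS), a component of the bacterial outer membrane that activates macrophages. The libraries were made as expression controls for the mapping of RNA bound by tristetraprolin (TTP), a protein that binds AU-rich mRNA and speeds its decay. As they cover both genotypes, they also show which of these mRNAs differed between them.

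The WT library came from C57BL/6 mice and the ΔM library from C57BL/6 TTP fl/fl LysMCre mice, in which Cre recombinase deletes the TTP gene *Zfp36* in myeloid cells. The WT mice were littermates of the ΔM mice, and all were 7 to 9 weeks old. LysMCre is expressed from the lysozyme M locus, so deletion depends on how fully that locus is active in each cell. Bone marrow cells of both genotypes were grown into macrophages with CSF-1 from L929 cells, labelled for 16 h with 4-thiouridine at 100 μM, and exposed to LPS at 10 ng/ml. Each genotype was represented by 1 library, so no difference below has a replicate check and no p-values were calculated. The study also compared expression in WT and ΔM macrophages at 6 h of LPS in separate, replicated libraries, which were not used here. The intervals given are 95% counting intervals, which cover the sampling of RNA fragments within a library and nothing else.

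Expression is given in FPKM, sequenced fragments scaled to the length of the exons and to the depth of the library, which allows levels of different genes to be compared. The steps between low FPKMs put the depth at about 36600000 fragments in WT and 32500000 in ΔM. The targeted gene *Zfp36* was at 65.3 FPKM in WT (interval 63.2 to 67.4) and at 16.7 FPKM in ΔM (15.6 to 17.9), so its RNA was lower in the library labelled ΔM but still present. Most macrophage markers were high in both libraries. The lysosomal protein gene *Cd68* was at 388 FPKM in WT against 390 FPKM in ΔM, and *Emr1*, which encodes the F4/80 antigen, was at 380 and 357 FPKM. The most abundant marker, the lysozyme gene *Lyz2*, into whose locus LysMCre is inserted, was at 2481 FPKM in WT against 1356 FPKM in ΔM. The 9 macrophage markers of the table summed to 3849 and 2737 FPKM, and 8 of them had a mean of 1 FPKM or more, the exception being *Cd163* at 0.06 and 0.02 FPKM. Without *Lyz2* the sums were 1368 and 1380 FPKM, and the median log2 ratio of ΔM to WT (after adding 1 FPKM) was 0.02 over the 8 at 1 FPKM or more, *Lyz2* included. *Mertk*, a receptor for the uptake of dying cells, was low, at 2.15 and 3.48 FPKM (0.51).

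An integrin is a pair of 1 α and 1 β subunit, each of which crosses the membrane. The β2 integrins are confined to leukocytes and bind ICAM proteins, complement and fibrinogen, whereas the integrins with β1, β3 and αv mainly bind matrix proteins such as fibronectin and vitronectin. They rest in a bent state of low affinity until talin and kindlin bind the β tail, and engaged integrins then assemble a complex of adaptors and kinases that ties them to actin.

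Binding of TTP to these transcripts had been mapped in the study by PAR-iCLIP, in which 4-thiouridine in the RNA is crosslinked to bound protein by UV light and the crosslink is located at single bases. Site sequences and positions were read from the lists of the study, of which the copy used is shortened, and each printed site matched the mm9 genome. They are shown because they place the bound bases of these mRNAs next to their expression values. Each sequence runs 5′ to 3′ along the transcript with T for U, capitals mark the bound site and lower case the flanking genome. In the last exon of *Icam1* and of *Itgb2*, the sites after 6 h of LPS lay in the 3′ UTR, among copies of the pentamer ATTTA.
Icam1, chr9:20832763-20832782, plus strand: tcttcTTGATGTATTTATTAATTTAgagtt
Icam1, chr9:20832796-20832804, plus strand: ttttaccagcTATTTATTGagtaccctgt
Itgb2, chr10:77028279-77028283, plus strand: acttatttatATTTAaacttgtcag
The *Icam1* window around the first site and the *Itgb2* window held 2 ATTTA each, and all 3 windows held the longer core TATTTAT. They were chosen to show these motifs and do not stand for all sites. Of the 9 *Icam1* 3′ UTR windows read at 6 h, 3 held ATTTA and 2 TATTTAT, and of the 4 of *Itgb2* 2 held ATTTA and 1 TATTTAT. Neighbouring windows overlap.

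At the same time point, the sites shown for the 4 genes below lay in introns, and none of the printed windows held ATTTA. They are shown to place these sites in the genes. Elsewhere intron windows did hold it, as the 3 of *Itgav* at 3 h included 2 with ATTTA and 1 with TATTTAT. The sites of *Itgam* and *Itgb2* were 70.6% T and that of *Itga5* 77.8%, whereas the site of *Itgal* was 10.0% T. A further intron site of *Itgam* was 60.0% T and one of *Itgb2* 33.3% T.
Itgam, intron 6, chr7:135219737-135219753, plus strand: ccactgTTCTTTATTATTATTGTtgttgt
Itgal, intron 15, chr7:134456632-134456641, plus strand: actctctcatCAAGAACATAtctatctatc
Itga5, intron 1, chr15:103194232-103194240, minus strand: ttctcattgaATTATTTTTaaagagttat
Itgb2, intron 14, chr10:77026125-77026141, plus strand: gtcaggAACTCCTTTTTTTTTTTaattat

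For *Itgav*, 6 TTP sites were read after 3 h of LPS, an earlier time than that of the RNA-Seq, 3 of them in the 3′ UTR and 3 in an intron. The one printed lies in the 3′ UTR of the longest coding transcript. The study lists all 3 of these 3′ UTR sites, however, as both 3′ UTR and intron. The 3′ UTRs of *Itgav* and *Itgb1* also carried sites of HuR, an RNA-binding protein known for protecting mRNAs from decay, and the 2 windows printed held no ATTTA. Of 7 HuR sites read in the 3′ UTR of *Itgav*, 6 had a window, and 0 of these 6 held ATTTA. In *Itgb1*, 1 of 9 HuR windows held it. The study lists the printed HuR site of *Itgav*, too, as both 3′ UTR and intron.
Itgav, TTP at 3 h, chr2:83644485-83644494, plus strand: gaccagagcgTTTAATTATTagtaatttat
Itgav, HuR, chr2:83646779-83646788, plus strand: ccaatctgcaTTTTATTTTAggtggaagat
Itgb1, HuR, chr8:131256753-131256773, plus strand: ttacCTTTTTTTTTTTCTTTAATTCctgg

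The genes stood in the same order of level in both libraries. *Itgam* was the highest, followed by *Itgb2*, *Icam1*, *Itgb1*, *Itga5*, *Itga4*, *Itgav*, *Itgal* and *Itgax*, and *Itgb3* was close to 0. No neighbours in this order had overlapping counting intervals. The closest in WT were *Itga5* and *Itga4*, whose FPKMs had a ratio of 1.09, a gap that has no replicate spread to be set against. In WT, *Itgam* exceeded 98.3% of the 8078 protein-coding genes whose mean was 1 FPKM or more, *Itgb2* 96.8%, *Icam1* 95.9% and *Itgb1* 93.6%. *Itgal* and *Itgax* stood in the middle and lower range, above 57.7% and 37.5% of these genes.

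**Figure D1:**
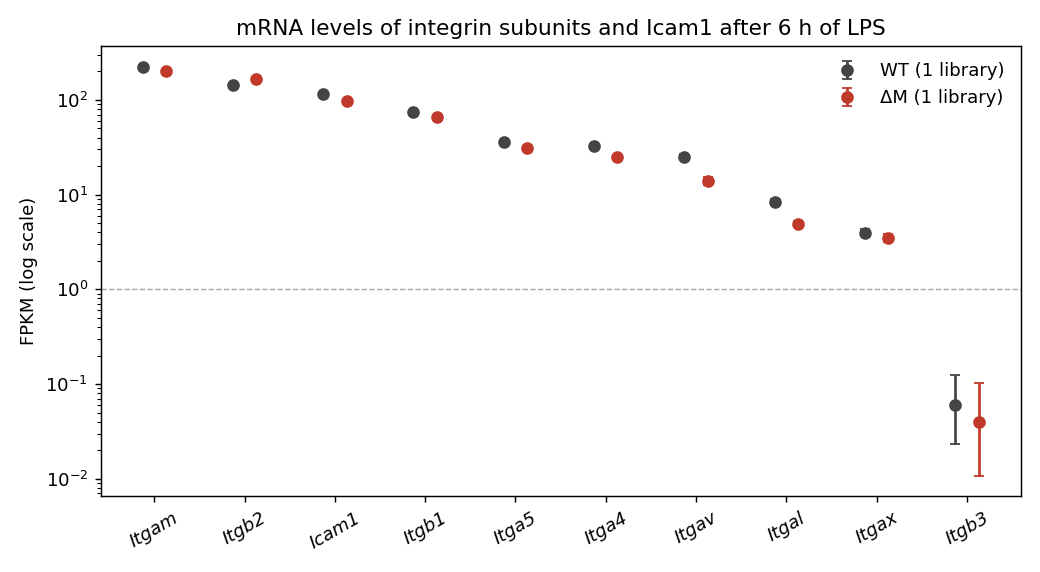
FPKM (log scale) of the 10 genes in the WT library (grey) and the ΔM library (red) after 6 h of LPS, ordered by level, with 95% counting intervals that are mostly smaller than the points; the dashed line is at 1 FPKM. *Itgam* is highest at 223 and 200 FPKM, and *Itgb3*, at 0.06 and 0.04 FPKM, is the only gene under the line.

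Of the 9 genes with a mean of 1 FPKM or more, 8 were lower in ΔM than in WT and 1, *Itgb2*, was higher. The difference was largest for *Itgav* and *Itgal*, which were lower in ΔM by more than 1.5-fold, and the other 7 stayed within 1.5-fold. Differences are expressed as the log2 ratio of ΔM to WT after adding 1 FPKM to both values, which understates the difference of low genes. The median log2 ratio of the 9 genes was -0.20, against 0.03 over all 10765 genes with a mean of 1 FPKM or more and -0.0015 over the 8078 protein-coding ones. Past 1.5-fold in either direction were 18.7% of all genes and 10.2% of protein-coding genes. Lower in ΔM by more than 1.5-fold were 7.51% of all genes and 5.36% of protein-coding genes, beside 2 of the 9. None of the 9 was higher in ΔM by more than 1.5-fold, whereas 11.2% of all genes and 4.8% of protein-coding genes were. None of the 9 passed 2-fold, which 9.31% of all genes and 2.51% of protein-coding genes did in either direction. A log2 ratio below 0 was found in 45.9% of all genes and 50.2% of protein-coding genes. The counting interval of the log2 ratio left out 0 for all 9 genes, but it did so for 51.0% of protein-coding genes too, since counting error was small at this depth. Because the RNA came from bulk cultures, fewer cells expressing a gene and less RNA per cell cannot be told apart.

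**Figure D2:**
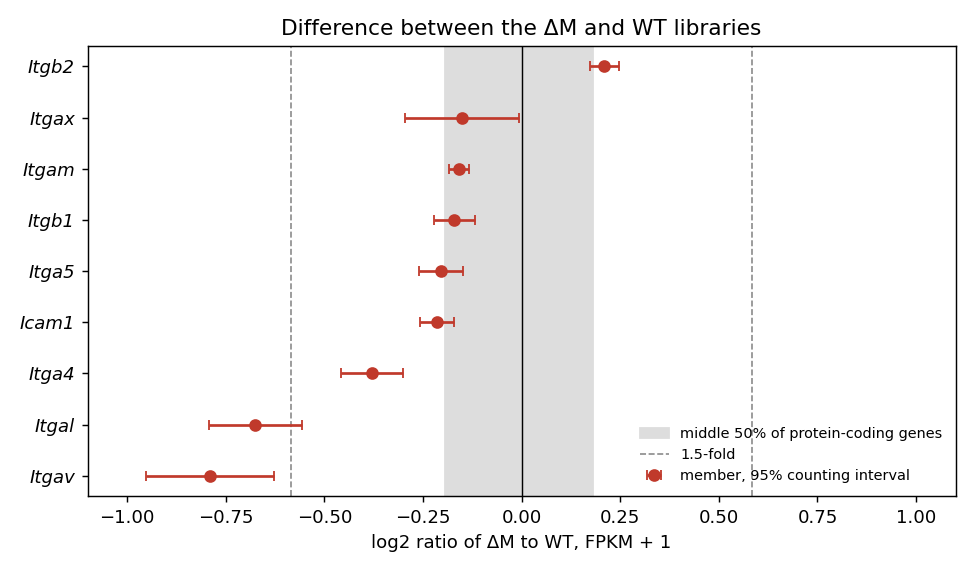
Log2 ratio of ΔM to WT after adding 1 FPKM for the 9 genes with a mean of 1 FPKM or more, with 95% counting intervals; the grey band holds the middle 50% of protein-coding genes, from -0.19 to 0.18, and dashed lines mark 1.5-fold. *Itgav* (-0.79) and *Itgal* (-0.67) lie beyond the line for lower expression, and *Itgb2* (0.21) is the only gene above 0.

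*Itgb2* (chr10:76992997-77028453, plus strand, mm9 as for all positions) encodes the β2 subunit, CD18, which every leukocyte β2 integrin needs to reach the cell surface. It was at 143 FPKM in WT (141 to 146) and 166 FPKM in ΔM (163 to 169), a log2 ratio of 0.21 (0.17 to 0.25). It was thus 116% of WT, and 77.5% of protein-coding genes had a lower ratio.

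Its main α partner by level was *Itgam* (chr7:135206154-135271674, plus strand), which encodes αM, CD11b, and forms the complement receptor Mac-1 with β2. *Itgam* was at 223 FPKM in WT (221 to 226) and 200 FPKM in ΔM (197 to 203), a log2 ratio of -0.16 (-0.18 to -0.13). This left 89.6% of the WT level, and 28.6% of protein-coding genes had a ratio below it. The α and β chains of Mac-1 therefore differed in opposite directions between these libraries, and the ratio of *Itgam* to *Itgb2* was 1.56 in WT and 1.21 in ΔM.

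*Itgal* (chr7:134439774-134478651, plus strand) encodes αL, CD11a, the partner of β2 in LFA-1, the classical receptor of ICAM-1. It was at 8.45 FPKM in WT (7.99 to 8.93) and 4.92 FPKM in ΔM (4.55 to 5.32). The log2 ratio was -0.67 (-0.79 to -0.56), or 58.2% of WT on the FPKM scale, and only 3.64% of protein-coding genes had a lower ratio. The interval of the ratio reached across the limit of 1.5-fold, which is 0.585 on the log2 scale.

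*Itgax* (chr7:135273061-135294171, plus strand), which encodes αX, CD11c, a common marker of dendritic cells, was at 3.96 FPKM in WT (3.64 to 4.30) and 3.47 FPKM in ΔM (3.15 to 3.81). Its log2 ratio of -0.15 had an interval whose upper end, -0.006, was nearly at 0. The dendritic cell markers summed to 0.67 FPKM in WT against 0.53 FPKM in ΔM, and the most abundant of these 6 genes was *Ccr7* at 0.36 and 0.27 FPKM.

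The 3 β2 partners summed to 235.6 FPKM in WT against 208.3 FPKM in ΔM, which is 1.64 and 1.26 times the level of *Itgb2*. *Itgam* supplied 94.7% of this sum in WT and 96.0% in ΔM, *Itgal* 3.59% and 2.36%, and *Itgax* 1.68% and 1.67%. These are mRNA levels, and protein at the surface was not measured. The 3 genes lie on chromosome 7 in one orientation. *Itgax* begins 1386 nt after the end of *Itgam* and is followed after 3718 nt by *Itgad*, the gene of the last β2 partner, which was at only 0.27 FPKM in WT against 0.03 FPKM in ΔM. *Itgal* lies 727502 nt before *Itgam*. The direct neighbours *Itgam* and *Itgax* thus differed widely in level, and the more distant *Itgal* had a lower ratio than *Itgam* and *Itgax*, with intervals that did not meet theirs.

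Neutrophils also carry *Itgb2* and *Itgam*, so their markers are given beside these values. The 9 neutrophil markers summed to 50.8 FPKM in WT against 101 FPKM in ΔM, almost all of it *S100a8*, a calcium-binding protein gene, at 50.7 and 100.02 FPKM. The defining genes *Ly6g*, *Elane* and *Ngp*, and also *S100a9*, were listed at 0 in both libraries. The granule genes *Camp* and *Prtn3* were listed at 0 in WT and at 0.41 and 0.15 FPKM in ΔM. T and NK cells use *Itgal* and *Itga4*, and their 7 markers summed to 1.08 FPKM in WT against 0.81 FPKM in ΔM, nearly all of it *Cd4* (1.03 and 0.77 FPKM), with *Cd3e*, *Cd3g* and *Ncr1* listed at 0 in both. B cell markers summed to 0.10 and 0.37 FPKM, with *Cd79b* the highest at 0.07 and 0.28 FPKM. The part of *S100a8*, of the other neutrophil markers and of *Lyz2* in the differences of the integrins was not tested.

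The β1 integrins are the fibronectin, laminin and collagen receptors of most cells. *Itgb1* (chr8:131209554-131257100, plus strand), the common β1 subunit, was at 74.9 FPKM in WT (73.1 to 76.8) and 66.5 FPKM in ΔM (64.7 to 68.3). The log2 ratio was -0.17 (-0.22 to -0.12), within the middle 50% of protein-coding genes.

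*Itga5* (chr15:103174720-103197194, minus strand) encodes α5, which with β1 forms the classical fibronectin receptor. It was at 36.05 FPKM in WT (35.1 to 37.0) and 31.2 FPKM in ΔM (30.2 to 32.1), a log2 ratio of -0.20 (-0.26 to -0.15). *Itga5* and *Itgb1* thus had ratios with overlapping counting intervals, at 86.4% and 88.7% of WT.

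*Itga4* (chr2:79095583-79173280, plus strand) encodes α4, which forms VLA-4 with β1 and binds VCAM-1 and fibronectin. It was at 33.0 FPKM in WT (31.8 to 34.2) and 25.1 FPKM in ΔM (24.0 to 26.3), a log2 ratio of -0.38 (-0.46 to -0.30). This was 76.2% of WT, and 11.8% of protein-coding genes had a lower ratio. Its interval lay below those of *Itga5* and *Itgb1*.

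*Itgav* (chr2:83564554-83647073, plus strand) encodes αv, which pairs with several β chains, binds the RGD motif of vitronectin and osteopontin, and takes part in the uptake of dying cells. It was at 24.9 FPKM in WT (23.2 to 26.6) and 14.0 FPKM in ΔM (12.7 to 15.4). The log2 ratio of -0.79 (-0.95 to -0.63) was the lowest of the 10 genes. At 56.1% of WT its whole interval was beyond 1.5-fold, and 2.41% of protein-coding genes had a lower ratio. The interval assumes about 827 fragments in WT and 412 in ΔM, estimated from the median length of its 9 annotated transcripts. The longest of these has 7054 nt, and transcripts of that length would have given more fragments.

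Set against *Itgb1*, the sum of *Itga4*, *Itga5* and *Itgav* was 93.9 FPKM in WT against 70.3 FPKM in ΔM, a ratio to *Itgb1* of 1.25 and 1.06. It depends on the genes chosen, since *Itga4* and *Itgav* also pair with other β chains. The β1 family chains *Itga9* and *Itga6*, given further below and higher in ΔM, were left out of this sum. The share of *Itgav* in this sum was 26.5% in WT and 19.9% in ΔM, that of *Itga5* 38.4% and 44.3%, and that of *Itga4* 35.1% and 35.8%. Endothelial cells and fibroblasts are rich in β1 and αv integrins. Their 7 markers summed to 6.63 FPKM in WT against 3.82 FPKM in ΔM, most of it *Kdr*, a VEGF receptor gene, at 5.59 and 3.23 FPKM. The fibroblast gene *Col1a1* was at 0.05 and 0.02 FPKM and the endothelial gene *Cdh5* at 0.02 and 0.04 FPKM. *Col3a1*, another collagen gene, was at 0.30 and 0.09 FPKM, and *Pecam1*, an endothelial and leukocyte adhesion gene, at 0.58 and 0.33 FPKM. The log2 ratio of *Kdr* was -0.64, and the part of these markers in the values of *Itgav* was not tested.

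*Itgb3* (chr11:104469370-104531790, plus strand) encodes β3, which pairs with αv in osteoclasts and endothelium and with αIIb on platelets. It was at 0.06 FPKM in WT (0.0234 to 0.126) and 0.04 FPKM in ΔM (0.0107 to 0.103), about 6.6 and 3.9 fragments. A difference was not detectable at this depth. The platelet markers summed to 115 FPKM in WT against 91.95 FPKM in ΔM, of which the chemokine gene *Pf4* made up 114 and 91.7 FPKM, and *Itga2b*, which encodes αIIb, was at 0.46 and 0.20 FPKM. *Gp9*, a platelet glycoprotein gene, was listed at 0 in both.

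*Icam1* (chr9:20820404-20833241, plus strand) encodes the immunoglobulin-like protein to which LFA-1 and Mac-1 bind, and is a known NF-κB target. It was at 114 FPKM in WT (112 to 117) and 98.3 FPKM in ΔM (96.1 to 101), a log2 ratio of -0.21 (-0.26 to -0.17). Its level in ΔM was 86.1% of WT, and 23.0% of protein-coding genes had a lower ratio. *Icam1* and *Itgb2*, the genes whose 3′ UTR sites at 6 h are printed above, thus lay on opposite sides of 0.

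Some of these loci overlap genes on the opposite strand, and whether reads were counted by strand is not given in the sources used here. The end of *Icam1*, with the printed TTP sites inside, overlaps the lincRNA gene *Mir1900* (chr9:20832751-20836801, minus strand), at 1.68 FPKM in WT against 1.32 FPKM in ΔM. *Itga4* overlaps the end of *Cerkl*, at 0.31 and 0.57 FPKM. *Itgav* overlaps *Gm13684*, at 0 and 0.06 FPKM, and the pseudogene *Dnmt3l-ps1*, listed at 0 in both. All 4 partners were thus listed far below the integrin or *Icam1* level at their locus, and if strand was not used, reads from the 2 strands cannot be told apart.

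AU-rich pentamers were counted in the longest annotated 3′ UTR of each gene on the sense strand, because TTP is known to bind repeats of them. ATTTA was present in 9 of the 10 genes and TATTTAT, each copy of which also contains an ATTTA, in 7 of 10 (70.0%). Of 7814 protein-coding genes whose mean was 1 FPKM or more and a 3′ UTR of at least 50 nt, 67.4% held ATTTA and 27.5% TATTTAT. Their median was 1.26 ATTTA per kb in a median 3′ UTR of 1048 nt. UTR length matters to such shares, so they were also taken among genes within 1.25 times the same length. There TATTTAT was found in 12.7% for *Itgb2*, 19.3% for *Icam1*, 22.3% for *Itga5* and 26.7% for *Itgb1*. It was found in 53.3% for *Itgb3*, 55.1% for *Itgav* and 71.1% for *Itga4*. For *Itgax*, *Itgam* and *Itgal*, which held no TATTTAT, the shares were 12.9%, 26.8% and 34.1%. The share with ATTTA at the same length ran from 45.3% for *Itgb2* to 100% for *Itga4* over the 10 genes.

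The densest of the 10 was *Itgav*, with 19 ATTTA and 3 TATTTAT in 3581 nt, or 5.31 ATTTA per kb, above 94.4% of genes. *Icam1* held 4 ATTTA and 2 TATTTAT in 851 nt (4.70 per kb). *Itgam* held 5 ATTTA but no TATTTAT in 1114 nt (4.49 per kb), and *Itgb2* held 2 ATTTA and 1 TATTTAT in only 446 nt (4.48 per kb). These 4 dense genes included the one with the lowest ratio of ΔM to WT, *Itgav*, and the only one above 0, *Itgb2*. *Itga4* had the longest 3′ UTR, 6508 nt, with 16 ATTTA and 2 TATTTAT (2.46 per kb).

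*Itga5* and *Itgb1* each held 2 ATTTA and 1 TATTTAT, in 980 and 1112 nt. *Itgb3* held the same numbers in 3331 nt. *Itgal*, which was lower in ΔM by more than 1.5-fold, held 1 ATTTA and no TATTTAT in 1527 nt, and *Itgax* held neither in 463 nt. A match of letters is a description of the sequence and not a binding site.

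**Figure D3:**
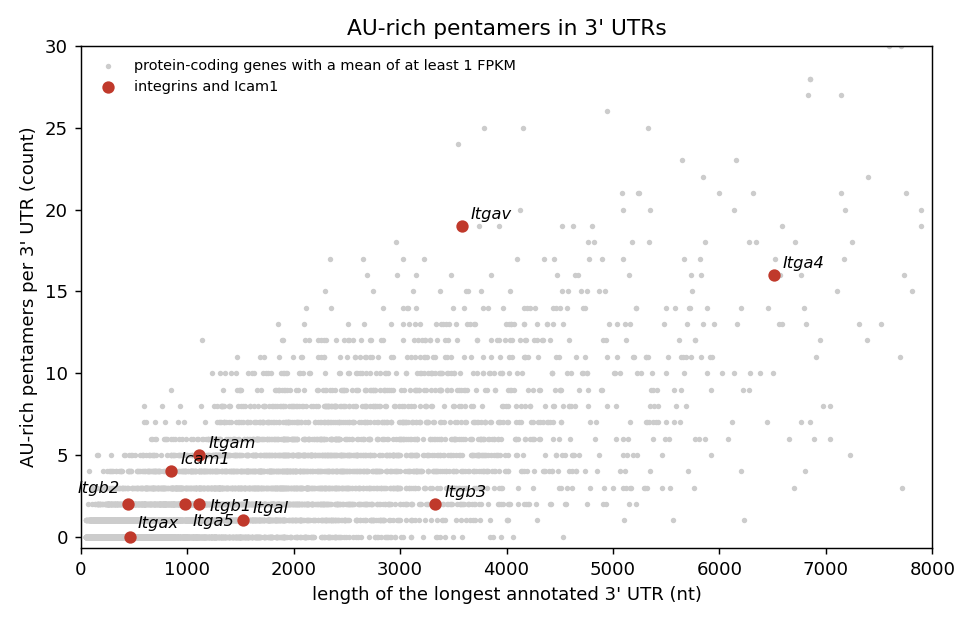
Number of ATTTA (y axis, count) against the length of the longest annotated 3′ UTR (x axis, nt) for the 10 genes (red) and protein-coding genes whose mean was 1 FPKM or more (grey), of which 29 lie outside the axes. *Itgav* stands high for its length with 19 in 3581 nt, while *Itgal* has 1 in 1527 nt and *Itgax* 0 in 463 nt.

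Among the 18 other integrin subunits of the table, 5 had a mean of 1 FPKM or more and none of these passed 1.5-fold after adding 1 FPKM. The median log2 ratio of the 5 was -0.20, and that of all 18 without the filter on low values was -0.02. *Itgb7*, the β7 partner of α4 in gut homing, was at 22.3 FPKM in WT against 15.4 FPKM in ΔM, a log2 ratio of -0.51. *Itgb5*, a β partner of αv, was at 19.8 and 17.0 FPKM (-0.20), and *Itgb8*, another, was at 2.81 and 1.55 FPKM (-0.58). *Itgb8* was at 55.2% of WT on the FPKM scale, and lay just inside 1.5-fold because 1 FPKM was added to low values. With 0.1 FPKM added, 1 of the 5 passed 1.5-fold. The counting interval of *Itgb5*, from -0.44 to 0.03, included 0. This interval assumes about 314 fragments in WT at the median annotated transcript length, against 1097 for *Itgb7*, so its width depends on that length. *Itga9*, a β1 partner close in sequence to α4, was at 14.4 FPKM in WT against 17.99 FPKM in ΔM (0.30), and the laminin receptor chain *Itga6* at 5.08 and 7.13 FPKM (0.42), so that α chains of the β1 family differed in both directions. The other 13 were under a mean of 1 FPKM.

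Of 12 other integrin ligands on cells, 6 had a mean of 1 FPKM or more, none passed 1.5-fold, and the median log2 ratio was -0.09. *Cd47*, the signal against engulfment and an αvβ3-associated protein, was at 207 FPKM in WT against 202 FPKM in ΔM (-0.03), and its receptor gene *Sirpa* at 177 and 164 FPKM (-0.11). The urokinase receptor gene *Plaur* was at 24.7 and 23.5 FPKM (-0.07). *Vcam1*, which encodes the ligand of VLA-4, was at 5.49 and 4.41 FPKM and *Icam2* at 1.46 and 1.06 FPKM, both with a log2 ratio of -0.26, and the interval of *Icam2* (-0.82 to 0.33) included 0. *F11r*, which encodes the junction protein JAM-A, was the only one of the 6 above 0, at 7.87 and 9.35 FPKM (0.22, from -0.08 to 0.53), while *Icam4* and *Madcam1* were listed at 0 in both libraries. *Icam1* was therefore far above *Icam2* and *Icam4* in both libraries.

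Of 14 ligands in matrix and plasma, 8 had a mean of 1 FPKM or more, with a median of 0.09 (0 over all 14). Of these 8, 2 were lower in ΔM by more than 1.5-fold and none higher. Lower by this much were 7.51% of all genes and 5.36% of protein-coding genes, and higher were 11.2% and 4.8%. The galectin gene *Lgals3*, at 2590 FPKM in WT against 2922 FPKM in ΔM (0.17), and *Spp1*, which encodes the αv ligand osteopontin, at 569 and 557 FPKM (-0.03), were the most abundant. *Lgals3bp*, the gene of a secreted galectin-binding protein, was at 242 and 257 FPKM (0.09). The 2 past 1.5-fold were *Thbs1*, which encodes the matrix protein thrombospondin 1, at 6.19 and 3.72 FPKM (-0.61), and *Fgg*, the fibrinogen γ chain gene, at 2.37 and 0.60 FPKM (-1.07). *Mfge8*, which bridges dying cells to αv integrins, was at 25.3 FPKM in WT against 33.8 FPKM in ΔM (0.40), against the direction of *Itgav*. Fibronectin mRNA was hardly present, with *Fn1* at 0.12 and 0.10 FPKM.

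Among the genes that switch integrins on and off, those with a mean of 1 FPKM or more all stayed within 1.5-fold after adding 1 FPKM. Of 17 genes of activation by talin, kindlin and Rap1, 10 had a mean of 1 FPKM or more and their median log2 ratio was 0.03. *Tln1*, the talin gene, was at 208 FPKM in WT against 249 FPKM in ΔM (0.26). *Fyb*, an adaptor in inside-out signalling, was at 144 and 124 FPKM (-0.21), and the GTPase gene *Rap1b* at 96.9 and 102 FPKM (0.08). *Fermt3*, the kindlin of blood cells, was at 46.8 and 47.8 FPKM (0.03). The lowest ratio of the 10 was that of *Stk4*, a kinase that acts downstream of Rap1, at 35.7 and 23.6 FPKM (-0.58), which passed 1.5-fold when 0.1 FPKM was added, and the highest that of *Apbb1ip*, which encodes the Rap1 effector RIAM, at 3.65 and 5.49 FPKM (0.48). Below the limit on the mean, *Rasgrp2*, which encodes an exchange factor of Rap1, was at 0.04 FPKM in WT against 1.24 FPKM in ΔM, a log2 ratio of 1.11 (0.588 to 1.53).

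Of the 10 integrin inhibitors, 9 had a mean of 1 FPKM or more, with a median of 0.05. *Flna*, the filamin that competes with talin for β tails, was at 170 FPKM in WT against 171 FPKM in ΔM (0.01). The adaptor gene *Dok2* was at 29.0 and 36.3 FPKM (0.31) and *Sharpin*, whose protein holds α tails inactive, at 31.9 and 25.8 FPKM (-0.30). The members of this list thus differed in both directions.

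In the adhesion complex that forms on engaged integrins, 16 of 20 genes had a mean of 1 FPKM or more. Of these, 3 were lower in ΔM by more than 1.5-fold and none higher. The shares lower by this much were 7.51% of all genes and 5.36% of protein-coding genes, and those higher 11.2% and 4.8%. *Zyx*, a LIM protein of adhesion sites, was at 97.2 FPKM in WT against 115 FPKM in ΔM (0.24), the kinase gene *Ptk2b* at 67.9 and 74.0 FPKM (0.12), and *Lims1*, which encodes the ILK partner PINCH1, at 71.2 and 64.2 FPKM (-0.15). The 3 past 1.5-fold were *Parvb*, *Parvg* and *Tes*. The parvins link ILK to actin, and *Parvb* was at 11.2 FPKM in WT against 3.91 FPKM in ΔM (-1.32), and *Parvg* at 4.13 and 1.93 FPKM (-0.81). The interval of *Parvg* was wide, from -1.53 to -0.06, and reached inside 1.5-fold. This interval rests on about 27.7 fragments in WT, estimated from the median annotated transcript length. The testin gene *Tes*, a partner of zyxin, was at 10.6 and 5.84 FPKM (-0.76). The median of the 16 was -0.04, a value whose sign depended on the filter on low values.

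**Figure D4:**
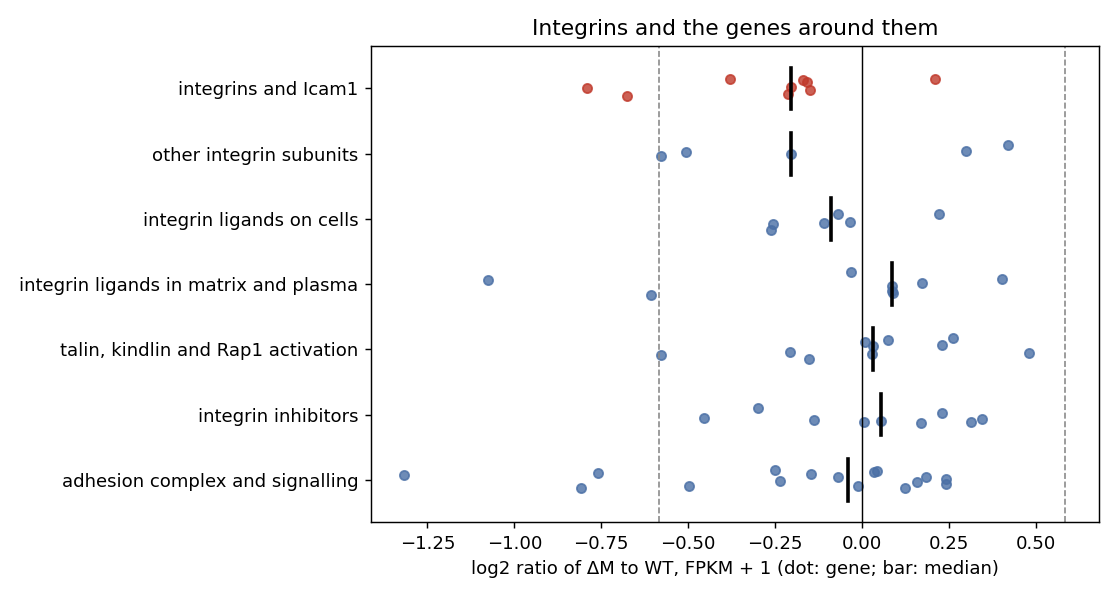
Log2 ratio of ΔM to WT after adding 1 FPKM for the 9 integrin and *Icam1* genes (red) and for 6 lists of related genes (blue), each dot a gene with a mean of 1 FPKM or more and each bar the median of its list; dashed lines mark 1.5-fold. Medians run from -0.20 for the 9 genes and the other integrin subunits to 0.09 for the ligands in matrix and plasma, and the single lowest gene is *Parvb* at -1.32.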

How the data were processed

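RNA-Seq was measured in 1 WT and 1 ΔM library of 4-thiouridine-labelled, LPS-stimulated BMDMs. The authors depleted rRNA, fragmented the RNA, selected cDNA of 200 to 300 nt, removed adaptors with Cutadapt, mapped reads to mm9 with Segemehl, kept unique reads and calculated the deposited FPKM values with Cufflinks. Genes with near-identical copies are therefore uncertain (*Gapdh* was at 3.59 FPKM in WT). Since FPKMs are normalized, tests for counts were left out.

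Both value columns were mapped by name, although the first character of the ΔM name was lost and only its M remained. The 10 genes and the gene lists were chosen with earlier results of these data known. Ratios were calculated as log2 after adding 1 FPKM, where the mean of both libraries reached 1 FPKM. Depth was found as the number of fragments at which low FPKMs are whole multiples of 1 fragment (91.8% of 1025 values in WT and 91.7% of 1017 in ΔM, against 14.5% and 13.3% expected for evenly spread values, within the rounding of 0.005 FPKM plus 0.02 fragments). Poisson intervals (95%) followed from this depth and the median annotated transcript length, and are approximate. The lengths of the transcripts present were not known, so intervals may be too wide or too narrow. The search for depth, the ratios and their intervals were tested on simulated data. The simulated ratios used the same median transcript lengths, so they could not test that choice of length.

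Coordinates, strands and 3′ UTRs came from GENCODE M1 on NCBIM37 (mm9), which held 37039 of the 37451 identifiers. Genes named are the 10, *Zfp36*, and from each list the 3 most abundant and all past 1.5-fold, with the most abundant gene of each marker list. Other list genes were named after their values were seen. Alternatives covered the added FPKM, the filter, the fold and centring. The software was Python 3.11.15 with scipy 1.17.1, pandas 2.3.3, numpy 2.4.6 and matplotlib 3.10.9.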

Additional observations from a re-analysis of the deposited data

How the results depend on the processing

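The direction of all 9 integrin and *Icam1* ratios held when 0.1 or 10 FPKM were added in place of 1 and when ratios were centred on protein-coding genes. Of these 27 alternative values 24 stayed within the 95% counting interval of the reported ratio and 3 left it, all with 10 FPKM added: *Itgav* to -0.54, *Itgal* to -0.31 and *Itga4* to -0.29, because the addition is large against their levels. *Itgax* went to -0.05, inside its wide interval. The number of the 9 genes past 1.5-fold was 2 as reported, 0 with 10 FPKM added, 0 at a limit of 2-fold, and 1 with a mean of at least 10 FPKM, a filter that leaves *Itgal* out. With 0.1 FPKM added, an alternative chosen for the lists after seeing the data, the number past 1.5-fold was 1 rather than 0 for the other integrin subunits (*Itgb8*) and 1 rather than 0 for the activation genes (*Stk4*), and was the same for the other 4 lists. The median ratio of the 9 integrin and *Icam1* genes ranged from -0.16 to -0.21. The median of the adhesion complex genes changed sign from -0.04 to 0.078 with a mean of at least 10 FPKM and to 0.0237 without a filter, since the filter sets which genes are in it. Without a filter, the medians of the other integrin subunits (-0.02), ligands on cells (-0.03), ligands in matrix and plasma (0) and activation genes (0.01) came closer to 0, and with a mean of at least 10 FPKM that of the inhibitors did (0.01). No paired analysis was possible because each genotype had 1 library, which also left no replicate to leave out. Depth limited *Itgb3*, with a handful of fragments per library, and widened the interval of *Itgax*. The interval of *Parvg* rested on its median annotated transcript length, which gave only about 27.7 fragments in WT. At a similar FPKM, *Itgax* was given about 556 fragments in WT.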
